A study of Mus musculus with 22 samples.

Results

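The genes for mitochondrial protein import and mitochondrial proteostasis were examined in 22 single mouse astrocytes whose calcium response to ethanol (EtOH) had been recorded before their RNA was taken. Members were the table rows whose symbol starts with Timm or Tomm, together with Hspd1, Hspe1, Hspa9, Trap1, Lonp1, Clpp, Clpx, Yme1l1, Afg3l2, Phb, Phb2 and Oma1. This gave 37 members of 23453 gene symbols, with 15 Timm genes, 10 Tomm genes and 12 genes listed by name. A read was found for 36 members, since Timm8a2 had none in any cell, and 36 passed the filter of a read in at least 5 cells. Tomm20l had 9 reads in all, so that 35 members had a level high enough for a ratio between types, and 23 members were read in every cell.

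The cells were primary cortical astrocytes of C57BL/6 mouse pups (P0-P1), all shaken and treated with cytosine arabinoside to remove other cell types, loaded with the calcium dye Fluo-4 AM and exposed to EtOH before collection by glass micropipette. They fell into 4 groups by the calcium signal, with 6 S-type cells (a sustained signal), 6 T-type cells (a transient signal), 5 M-type cells (a mixed signal) and 5 NR cells (nonresponsive, exposed to EtOH like the others). The labels name no animal, culture or collection time for a cell, so each type was taken as 1 sample, no test between types was made, and differences are given as log2 ratios of type levels beside the values of the cells. Cells of 1 culture may therefore share a group, and response type and culture cannot be told apart. The paper describes collection at an earlier and a later time after EtOH exposure, so this time may also differ between cells and types.

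Most mitochondrial proteins are made in the cytosol. The translocase of the outer membrane (TOM) receives them, the TIM23 complex and its Hsp70 motor pull proteins with a presequence into the matrix, and the small Tims and the TIM22 complex carry hydrophobic proteins to the inner membrane. In the matrix, Hsp60 (Hspd1) and its lid Hsp10 (Hspe1) fold the incoming chains, and the proteases LONP1, CLPXP and the membrane AAA proteases remove those that fail. Astrocytes rely on mitochondria to buffer calcium and to support glutamate handling.

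Total counts lay between 2937786 and 22131076 per cell. Each count was divided by the size factor of its cell (median of ratios over 3670 genes), and a type's level of a gene is the mean of the normalised counts of its cells. Of the astrocyte markers, Slc1a3, Glul, Sox9 and Gja1 were above 10 CPM (reads in a library scaled to 1000000 reads) in 22 of 22 cells, Aqp4 and Aldoc in 21, Aldh1l1 in 18, Slc1a2 in 16, Gfap in 14 and S100b in 6. The median of Slc1a2 in T-type was 0.714 CPM, and those of S100b were 0.539 in T-type and 0.263 in M-type, so these markers were low there. The defining microglial gene P2ry12 had 2 reads in all, Sox10 of the oligodendrocyte lineage and Cldn5 of endothelium had none, but Olig2 was above 10 CPM in 17 cells and the neuronal gene Stmn2 in 14. The summed neuronal markers reached 2076 CPM in the S-type cell J151_5, where the median over all cells was 184.9. A pair of T-type libraries stood apart, J163_18 with the lowest total count and a size factor of 0.183, and J162_16 with a size factor of only 0.276 at 12564138 reads. In J162_16 there were 45565225 reads per unit of size factor, against 9561152 to 21895269 in the other cells, so that its normalised counts are high for their share of the library. For the members past 2-fold in a T-type contrast, the ratio is therefore given also without both cells.

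The members together took a similar share of the reads in the 4 types. Their summed counts ran from 2944 to 4157 CPM in the S-type cells, with a median of 3555, and from 1933 to 4338 with a median of 3964 in the T-type cells. The M-type cells covered 3145 to 5709 with a median of 3421, and the NR cells 2208 to 3897 with a median of 3588. The lowest cell was J163_18 and the highest the M-type cell J172_23, and the ranges of the types overlapped. The median number of members with a read was 36 in NR, 35 in both S-type and M-type, and 33.5 in T-type. J162_16 had 27 and J163_18 had 29, while each of the other cells had at least 32. The members without a read in J162_16 were Timm8a1, Timm8a2, Timm9, Timm10, Timm44, Tomm40l, Tomm20l, Lonp1, Clpx and Oma1, which include a matrix protease (Lonp1) and the unfoldase of another (Clpx).

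**Figure D1:**
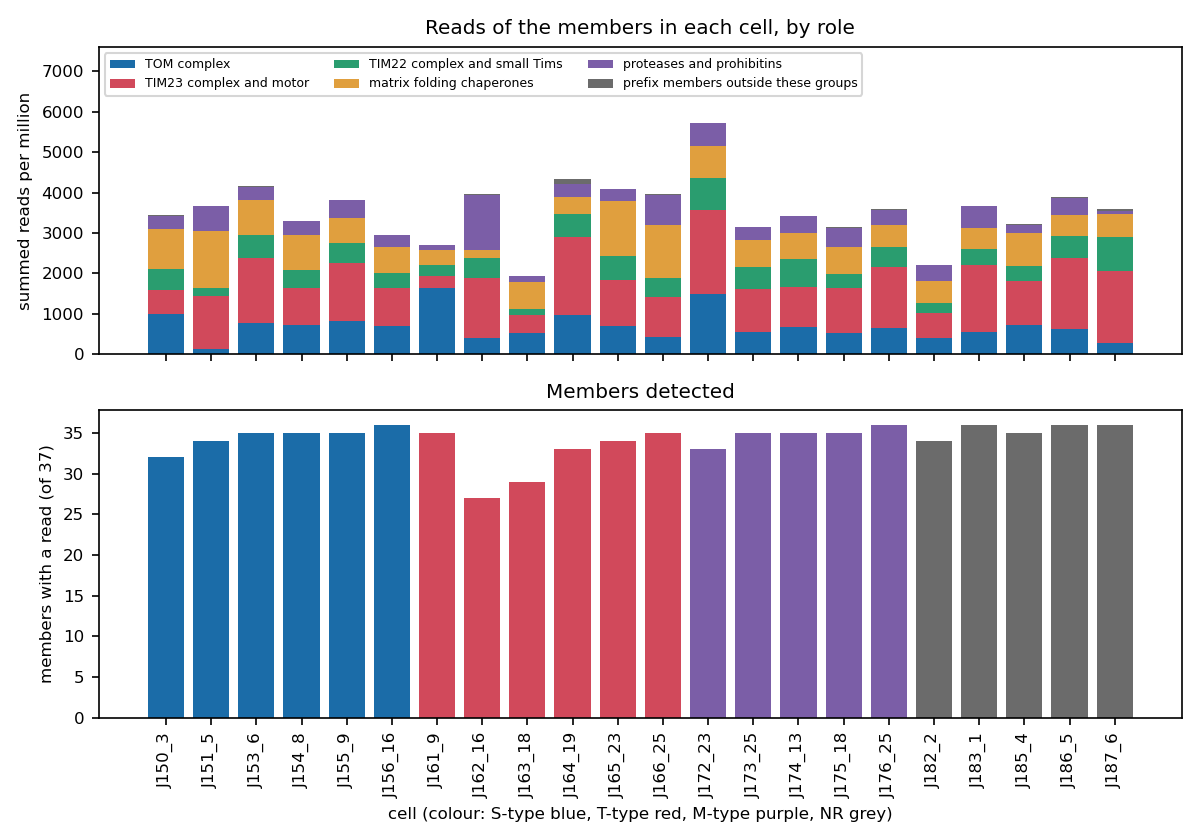
Summed CPM of the members in each of the 22 cells, stacked by role (top), and the number of the 37 members with a read in each cell, with bars coloured by response type (bottom). The highest sum was 5709 in the M-type cell J172_23 and the lowest 1933 in the T-type cell J163_18, and J162_16 had the fewest members with a read, 27.

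Levels per length were set by a few members. Per kilobase of merged exon, Timm8b, a small Tim of the intermembrane space, led with a mean level of 5841, before Hspe1 with 3596, Hspa9 with 1920, Hspd1 with 1263, Tomm7 with 1159 and Timm17a with 939.8. Without J162_16 the value of Timm17a was 595, below the 749 of Timm10. Hspa9, the mitochondrial Hsp70, took 19.7% of all member reads, Hspe1 12.5%, Timm17a 11.9% and Tomm70a 10.1%. At the low end, the scaffold for the import motor Timm44 had 22.9 per kilobase and the outer membrane channel Tomm40 23.9. The channel gene therefore stood far below the small accessory subunits Tomm7 and Tomm5 of the same complex, where Tomm5 had 742 per kilobase and 436 without J162_16. Not divided by length, the gap was smaller, with mean levels over all cells of 108 for Tomm40, 644 for Tomm5 and 1303 for Tomm7. The paper names shortened products and end bias as concerns of RNA amplification. Reads may thus not cover the exons evenly, which was not tested, so short and long genes compare only roughly per length. Levels of Tomm40l and Tomm6 are uncertain, since 64.3% of the exon bases of Tomm40l lie opposite Nr1i3 and 76.0% of those of Tomm6 lie under another gene model on the same strand, and whether strand was used in counting is not given in the sources used here. GENCODE names 6 pseudogenes of Hspe1, 5 of Hspd1 and 1 of Hspa9, so reads of these genes could also be lost or shared.

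**Figure D2:**
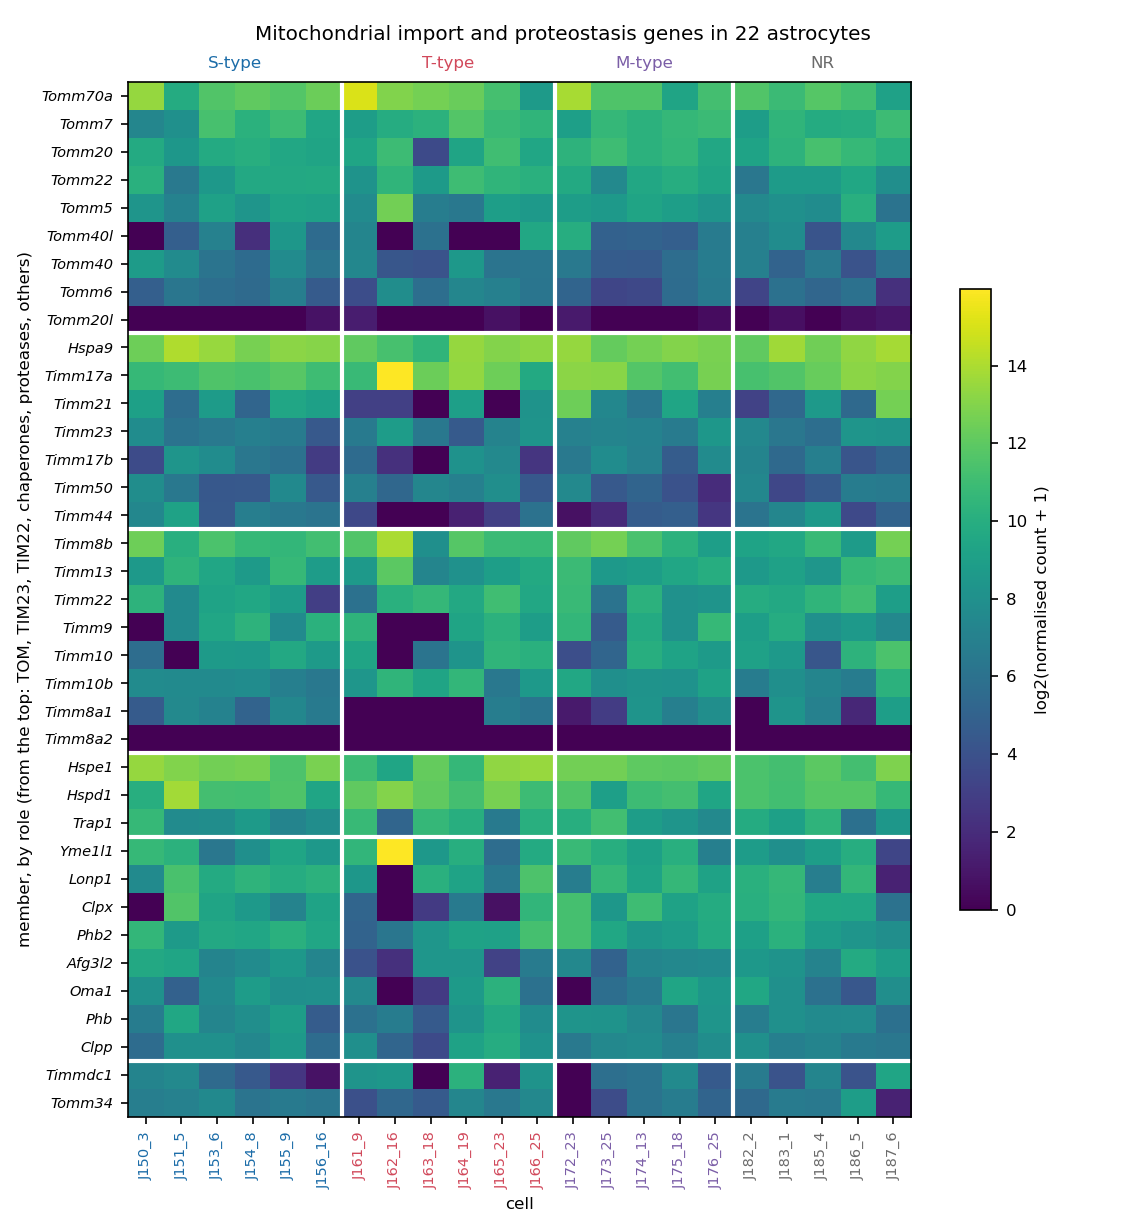
Log2 of the normalised count plus 1 of the 37 members (rows, grouped by role and ordered by mean level) in the 22 cells (columns, grouped by response type). Hspa9, Hspe1, Hspd1, Timm17a and Tomm70a are bright in nearly all cells, and the dark cells of J162_16 and J163_18 are members without a read.

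In each contrast and direction the share of members past 2-fold was below that of all genes that passed the filter. It was below by little for members higher in T-type than in NR (25.7%) and lower in S-type than in NR (20.0%). Between T-type and S-type, 5 of 35 members were at least 2-fold higher in T-type and 5 at least 2-fold lower, against 25.7% and 32.5% of 12517 genes. Another 10 members lay between 0.76 and 0.99 on the log2 scale, just under the limit, and the count of higher members was 6 to 11 with any 1 cell left out. Between T-type and NR, 9 were higher and 5 lower, against 28.4% and 32.8% of 12508 genes. On mean CPM 5 were higher and 6 lower. Between S-type and NR, 2 were higher and 7 lower, against 25.1% and 22.5% of 12621 genes. With TMM factors 1 was higher and 8 lower. Between M-type and NR, 2 were higher and 5 lower, against 19.8% and 28.1% of 12616 genes. Genes with few reads have larger ratios, so the shares were also taken at a mean level of at least 50, which all 35 members reached. Within 2-fold were 71.4% of members and 46.8% of 9736 genes between T-type and S-type, and 60.0% and 43.3% between T-type and NR. Between S-type and NR these shares were 74.3% and 58.4%, and between M-type and NR 80.0% and 58.9%. At this level 20.0% of members and 19.4% of genes were lower in S-type than in NR, so that share was no longer below. Higher in T-type than in NR were 25.7% of members and 29.3% of genes.

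The members' median log2 ratio was 0.36 for T-type over S-type, 0.41 for T-type over NR, 0.05 for S-type over NR and 0.14 for M-type over NR, with medians over all genes of -0.09, -0.07, 0.03 and -0.20. Without J162_16 and J163_18 the T-type medians were 0.39 over S-type and 0.57 over NR, with medians over all genes of -0.19 and -0.21. With only J162_16 left out they were 0.12 and 0.54, with medians over all genes of -0.07 and -0.09. The members' T-type over S-type median thus rested much on that cell. On mean CPM the T-type over S-type value turned to -0.11 and the all-gene median to -0.46, and with the median over cells they were -0.21 and -0.78. The members' median thus lay above the all-gene median on each of these scales, but its sign did not hold. The 76 measured mitochondrial ribosomal protein genes had medians of 0.58 and 0.59 in the same T-type contrasts, and the respiratory chain and ATP synthase genes 0.67 (86 genes) and 0.31 (85 genes). Over NR these rested much on J162_16, without which the ribosomal median was 0.12 and the respiratory median 0.04, and without both cells they were 0.32 and 0.06. Over S-type they were 0.53 and 0.47 without J162_16, and 0.51 and 0.62 without both cells. In no contrast did a member keep the cells of both types fully apart, where 0.783%, 1.01%, 0.412% and 0.602% of all genes did in the order given above.

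Of the 40 member ratios past 2-fold, 15 stayed past it whichever cell was left out. Between T-type and S-type these were Timm10b, Timm17a and Timmdc1 of 5 higher and Timm8a1, Timm21, Timm44 and Afg3l2 of 5 lower members, where 24.5% and 57.1% of the genes past 2-fold stayed so. Between T-type and NR they were Tomm6 and Tomm22 of 9 higher and Timm8a1, Timm44, Clpx and Afg3l2 of 5 lower members, against 29.7% and 51.0% of genes. Between S-type and NR none of 2 higher and 7 lower members stayed, against 44.0% and 32.9% of genes. Between M-type and NR none of 2 higher and, of 5 lower, Timm44 and Afg3l2 stayed, against 36.0% and 37.7% of genes. The lower counts of Timm44 and Afg3l2 held in 3 contrasts, of which both against NR share the NR cells and both of T-type share the T-type cells.

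**Figure D3:**
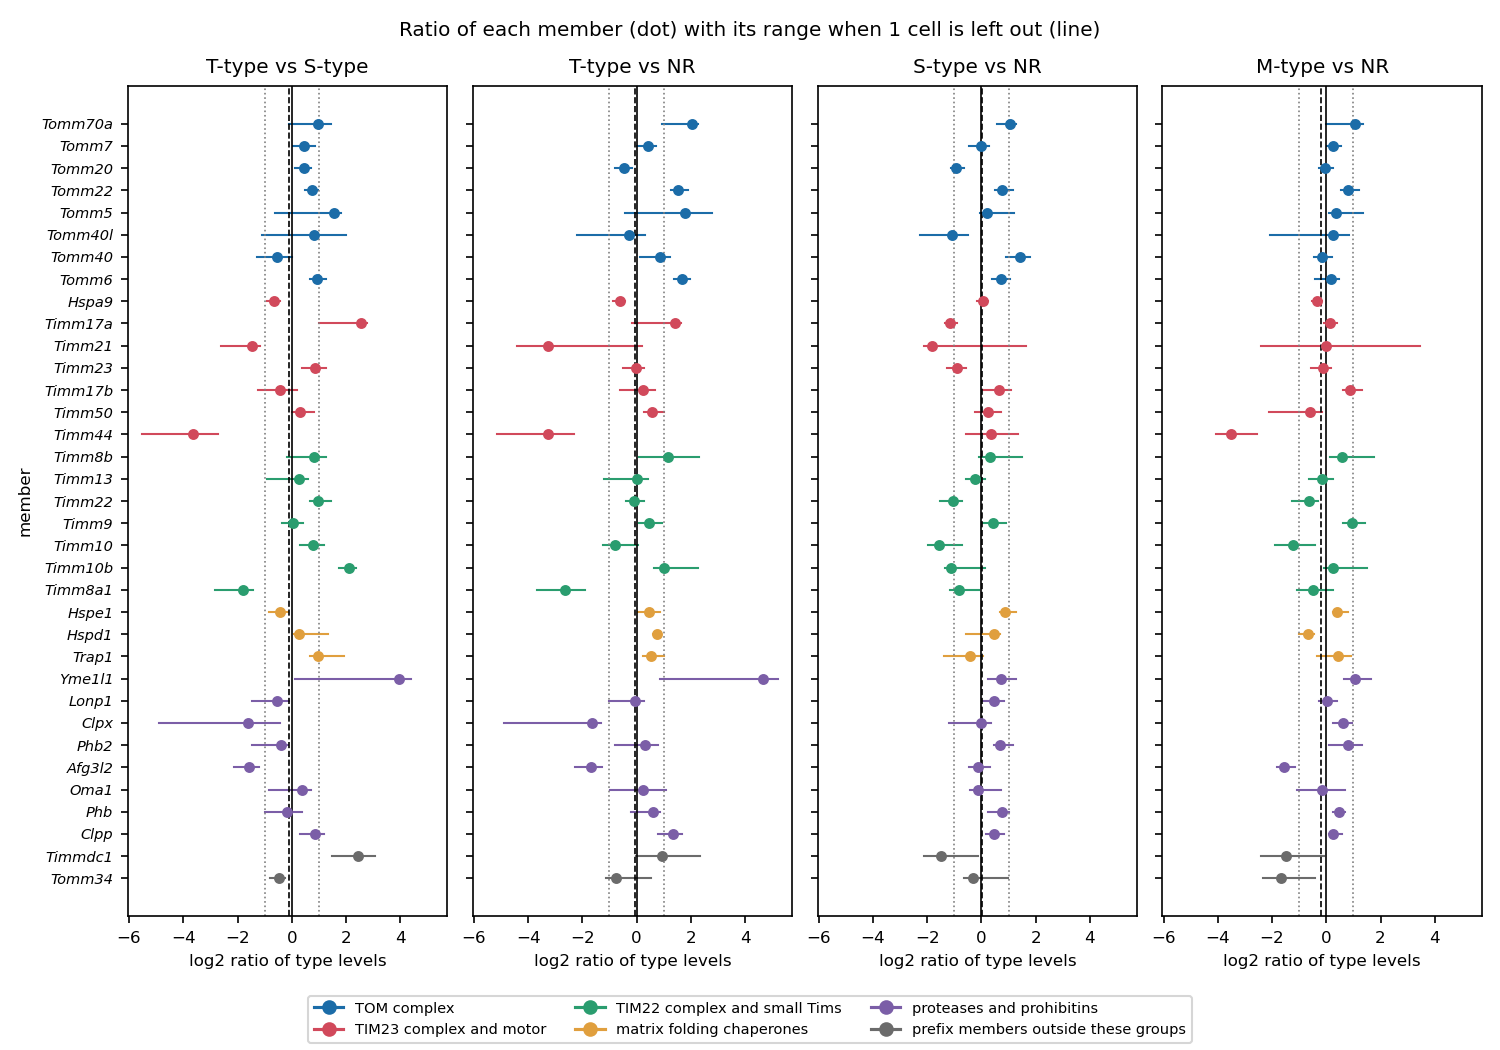
Log2 ratio of type levels of 35 members in the 4 contrasts, with a line for the range when each cell is left out in turn. Dotted lines mark 2-fold, the dashed line the median of all genes. The longest lines belong to Timm21 and Clpx, and those of Yme1l1 and Tomm5 run toward 0 from the dot, since each rests on 1 cell.

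Of the TOM complex, 8 members had a ratio. In T-type against NR 4 were at least 2-fold higher (Tomm5, Tomm6, Tomm22 and Tomm70a) and none lower, against 28.4% and 32.8% of all genes, and the group median was 1.20. That median was 0.70 without J164_19, 0.85 without J162_16 and 1.02 without both libraries that stood apart. As a share of the library the types differed less. The summed TOM counts had medians of 603 CPM in T-type, 556 in NR, 748 in S-type and 653 in M-type. Their ranges overlapped, with 409 to 1649 in T-type and 276 to 714 in NR. Tomm70a (chromosome 16, 57121703 to 57156705 on GRCm38), the receptor for carrier proteins that arrive with cytosolic chaperones, was 902, 3773 and 11344 in S-type (lowest, median and highest of 6 cells) and 413, 5733 and 34112 in T-type. In M-type its normalised counts were 14921, 3075, 3035, 638 and 2344, and in NR 3202, 1913, 3509, 2273 and 575. In each of the 3 responding types some cell exceeded the highest NR cell, 4 of 6 in T-type, 3 of 6 in S-type and 1 of 5 in M-type, but all types overlapped.

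The level ratio of Tomm70a to NR was 2.03 in T-type (95% counting interval 2.01 to 2.06), 1.05 in S-type and 1.07 in M-type, which share the NR cells. Without both T-type libraries that stood apart the T-type value was 2.34. The T-type value rested most on J161_9, without which it was 0.94, without J172_23 the M-type value was -0.02, and without J150_3 the S-type value was 0.57. Counting intervals are narrow because reads are many, and they hold counting error only, while the range over left-out cells shows how far single cells set the level.

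Tomm22, the central receptor that recruits precursors to the channel, was 293, 1260.2 and 2039 in T-type and 85.6, 790.5 and 1117 in S-type. In NR its 5 values were 80.1, 432, 437, 743 and 239, and in M-type 832, 185.6, 752, 989.8 and 647. Its T-type over NR ratio of 1.53 stayed between 1.27 and 1.91 with any 1 cell left out and was 1.69 without both cells, and 4 of 6 T-type cells lay above every NR cell. Tomm5, a small subunit of the channel complex, rested on a single cell. Its T-type over NR ratio of 1.79 came from J162_16, with 6220 normalised counts from 1715 reads, and the value was -0.42 without that cell and -0.21 without both. The T-type over S-type ratio of 1.57 was -0.40 without both. Tomm6, another small subunit, was 1.67 higher on the log2 scale in T-type than in NR (1.37 to 1.98 with a cell left out, 1.504 without both), with the exon overlap named above. Tomm40, the channel itself, was 1.43 higher in S-type than in NR and 0.89 higher without J150_3, with 47.3, 138 and 444 in S-type and 121, 33.5, 87.7, 16.1 and 65.8 in NR, and 3 of 6 S-type cells above the highest NR cell. Tomm20, the main presequence receptor, and Tomm7 stayed within 2-fold in all 4 contrasts. The S-type cell J151_5, which had the most neuronal marker reads, had the lowest TOM sum of all, 132 CPM.

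Of the TIM23 complex and motor, 7 members had a ratio, and those past 2-fold went both ways. Timm17a (chromosome 1, 135295213 to 135313778), the channel subunit whose protein is known to be short-lived under stress, was 1657, 2373 and 3694 in S-type and 849, 5513 and 64503 in T-type. In M-type it was 9609.7, 8965, 3369, 2231 and 6757, and in NR 2607, 3139, 4991, 9236 and 8108. The S-type cells covered the narrowest range, and 3 of 6 lay below every NR cell. The study lists Timm17a, Timm44 and Timm10b among mitochondrial genes that differed between S-type and T-type in these same cells. Their values here are therefore no independent evidence.

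The Timm17a ratio was 2.56 for T-type over S-type, and 1.02 without J162_16, a cell that alone held 17786 of its reads, and 0.99, under 2-fold, without both cells. The T-type over NR ratio of 1.40 turned to -0.17 without that cell and to -0.23 without both. The S-type over NR ratio was -1.16 and lay between -1.34 and -0.90 with any 1 cell left out. Timm17b, the other isoform of this subunit, had a T-type over S-type ratio of -0.43, and Timm23, the partner channel subunit, 0.87.

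**Figure D4:**
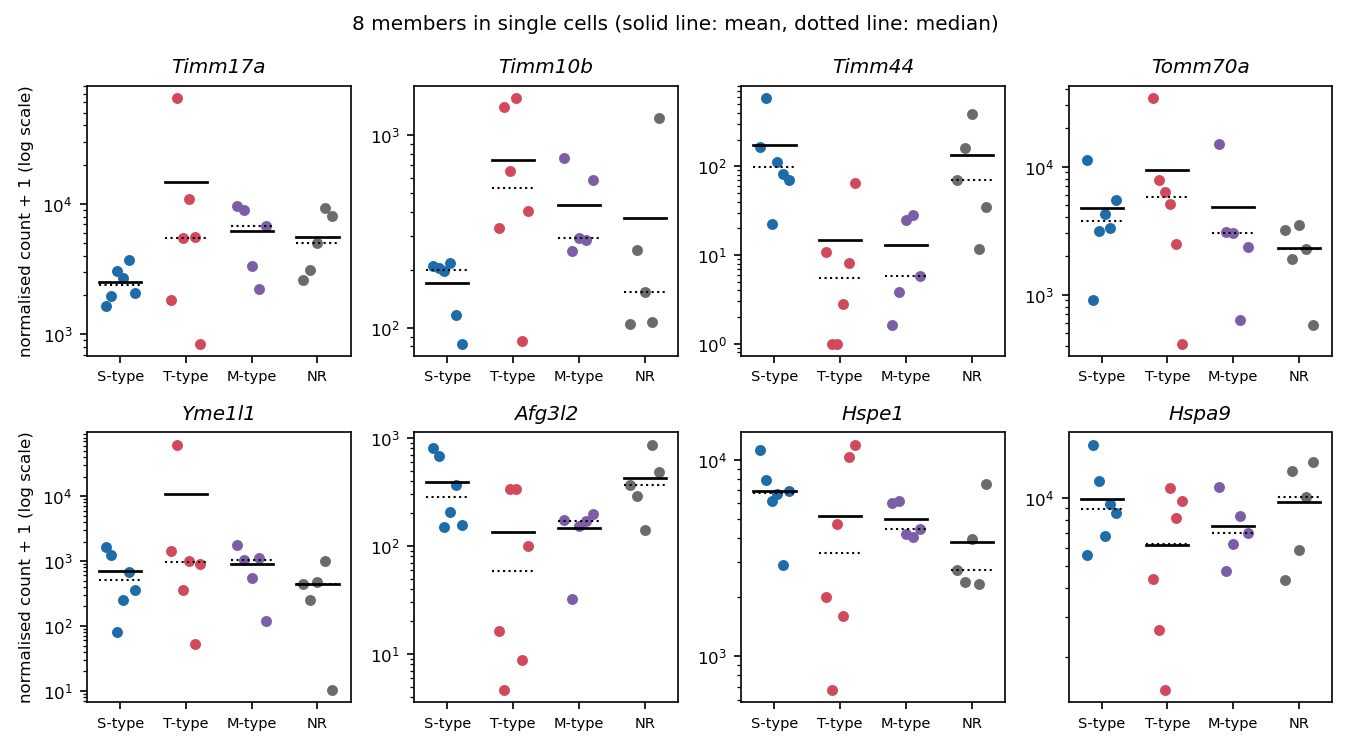
Normalised count plus 1 on a log scale of 8 members in each cell, by response type, with the mean (solid line) and the median (dotted line). The highest T-type cell of Timm17a and of Yme1l1, J162_16, lifts the mean far above the median. Timm44 is below 30 in all M-type cells and in 5 of 6 T-type cells.

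Timm44 (chromosome 8, 4259731 to 4275913), the scaffold that ties the Hsp70 motor to the channel, was 21.3, 96.4 and 585 in S-type and 0, 4.48 and 64.0 in T-type. In M-type it was 0.626, 2.80, 23.9, 27.0 and 4.75, and in NR 68.6, 160.5, 393, 10.8 and 33.4. T-type and M-type thus shared low counts, and 5 of 6 T-type cells lay below every S-type cell and below every NR cell. The log2 ratio was -3.64 for T-type over S-type (-3.93 to -3.37 as counting interval), -3.27 for T-type over NR and -3.50 for M-type over NR, and 0.37 for S-type over NR. It kept its sign with any cell left out, between -5.51 and -2.70 for T-type over S-type, and without J162_16 and J163_18, the 2 T-type cells at 0, it was -3.01, with -2.62 for T-type over NR. The cell J166_25 was the only T-type cell within the NR range, and without it T-type lay wholly below both S-type and NR. Its absolute level was low, 2321 reads over 22 cells, and the S-type maximum was in J151_5, the cell with the most neuronal marker reads. The T-type over S-type ratio without that cell was -2.70. The part of neuronal RNA in this result was not tested.

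Timm21, which links the presequence translocase to the respiratory chain, had a ratio set by a single NR cell. It was -3.26 for T-type over NR, -2.82 without both T-type cells and 0.20 without J187_6, an NR cell with 6246 normalised counts where the other 4 had 7.89, 41.4, 392 and 43.7. Its T-type over S-type ratio was -1.46, and -0.87 without both. Hspa9, the motor itself, had even type levels and a wide spread over cells, 5605, 8967 and 17126 in S-type and 1424, 6266 and 11038 in T-type, with ratios between -0.67 and 0.05 in the 4 contrasts. Timm50, the receptor of the complex, also stayed within 2-fold in all 4.

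Of the TIM22 complex and small Tims, 7 members had a ratio, and in S-type against NR 3 were at least 2-fold lower (Timm10, Timm10b and Timm22) with none higher, against 22.5% and 25.1% of all genes, and a group median of -0.84. These values rested on the NR cell J187_6, without which the group median was 0.14, with 1 member lower (Timm22, -1.28) and 1 higher (Timm8b, 1.48). Timm10b, a small Tim that joins the TIM22 complex, was 81.6, 199 and 215 in S-type and 84.2, 529.7 and 1559.6 in T-type. In M-type it was 766, 250.0, 291, 283 and 588, and in NR 103, 252, 153.2, 106 and 1232. All 6 S-type cells lay below all 5 M-type cells, the only such member in any pair of types, where 0.464% of genes were apart between these types. This pair is not among the 4 contrasts. It came from a search of 36 members over all pairs of types. In the other pairs the share of genes apart ran from 0.409% to 0.991%, so 1 such member does not mark out Timm10b.

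The Timm10b ratio of T-type over S-type was 2.12, between 1.76 and 2.38 with a cell left out and 1.83 without both T-type libraries, and 5 of 6 T-type cells exceeded every S-type cell. The exception was J165_23, and without it the groups did not overlap. The ratio of S-type over NR was -1.12 and turned to 0.14 without J187_6, so it rested on that NR cell. T-type over NR was 1.00, and it was 2.26 without J187_6, 0.64 without J164_19, 0.69 without J162_16 and 0.62 without both T-type libraries. Some reads may belong to Arfip2, with which Timm10b shares 277 exon bases on the opposite strand. Timm10b also shares 376 exon bases with the gene model Gm45799 on the same strand, so reads could be lost or shared there too.

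Timm8a1, an X-linked small Tim that escorts the TIM23 subunits, was read in 2 of 6 T-type cells, with 106 in J165_23 and 73.7 in J166_25. It was read in 6 of 6 S-type cells (23.1 to 181), in 5 of 5 M-type cells and in 4 of 5 NR cells. The ratio of T-type over NR was -2.66 and over S-type -1.81, and with both libraries that stood apart left out it was -2.05 and -1.12. Timm8b, the paralog with the highest level per length, was read in 22 of 22 cells with 245, 2563 and 15968 in T-type, where the highest was J162_16, and its T-type over NR ratio of 1.15 was 0.10 without that cell and 0.36 without both. Timm10, the partner of Timm9 in the hexameric carrier chaperone, was 1.56 lower on the log2 scale in S-type than in NR and 1.24 lower in M-type, and without J187_6 these values shrank to -0.71 and -0.40. Over the 22 cells Timm9 and Timm10 had a Spearman rho of 0.23, Timm8b and Timm13 of 0.08 and Timm8a1 and Timm13 of 0.37. Without both libraries that stood apart these were 0.04, -0.23 and 0.45.

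The matrix chaperones Hspe1, Hspd1 and Trap1 stayed within 2-fold in all 4 contrasts. Hspe1 was 2924, 6791 and 11183 in S-type and 671, 3341 and 11892 in T-type. In M-type it was 6017, 6144, 4189, 4035 and 4426, and in NR 2755, 2389.7, 3957, 2337 and 7518. Every M-type cell exceeded every NR cell except J187_6, and S-type exceeded NR by 0.87 on the log2 scale. Hspd1 was 662, 2284 and 13729 in S-type, 1967, 4319 and 8327 in T-type, 3044, 515, 1999.5, 2366 and 671 in M-type and 2809, 2301, 3519, 3465 and 1656 in NR. The S-type maximum was again in J151_5. Trap1, the mitochondrial Hsp90, varied more, from 36.3 in J162_16 to 2285 in the M-type cell J173_25.

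Hspd1 and Hspe1 are transcribed away from each other from a shared region on chromosome 1. The RefSeq promoter window of Hspe1 (250 bases before to 50 after the start, GRCm38.p6, chr1:55087898-55088197, plus strand) is shown because this region serves both genes, with its 2 matches to the heat shock element core, TTCNNGAA, in capitals. The core reads the same on both strands.
Hspe1: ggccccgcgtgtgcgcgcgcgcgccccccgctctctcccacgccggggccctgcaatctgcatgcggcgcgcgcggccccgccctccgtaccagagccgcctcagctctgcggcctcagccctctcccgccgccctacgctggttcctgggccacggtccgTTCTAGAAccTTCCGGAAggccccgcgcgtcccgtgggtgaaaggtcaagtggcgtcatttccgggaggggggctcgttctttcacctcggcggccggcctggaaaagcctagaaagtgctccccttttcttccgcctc
The cores begin 89 and 79 bases before the RefSeq start of Hspe1, and a window of Hspd1 on the other strand shares 285 of these bases. The C/EBP and CHOP motif, searched as TGCAAT on both strands, occurs once in the window and does not overlap the cores.

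Although they share this region, the levels of Hspd1 and Hspe1 did not move together over the cells. Over 22 cells Pearson's r of their log2 values was -0.30 and Spearman's rho -0.35, given as a description, since the cells of a type may share a culture and both values of a cell share its size factor. Hspd1 exceeded Hspe1 in 7 of 22 cells, and the log2 ratio of Hspd1 over Hspe1 ran from -3.58 in J173_25 (M-type) to 3.63 in J162_16 (T-type) with a median of -0.69. J162_16 had the lowest Hspe1 of all cells on both scales, while its Hspd1 was the second highest on normalised counts but only rank 16 of 22 by CPM (182.7). Without J162_16 and J163_18 rho was -0.32. The genes also share 112 exon bases on opposite strands.

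**Figure D5:**
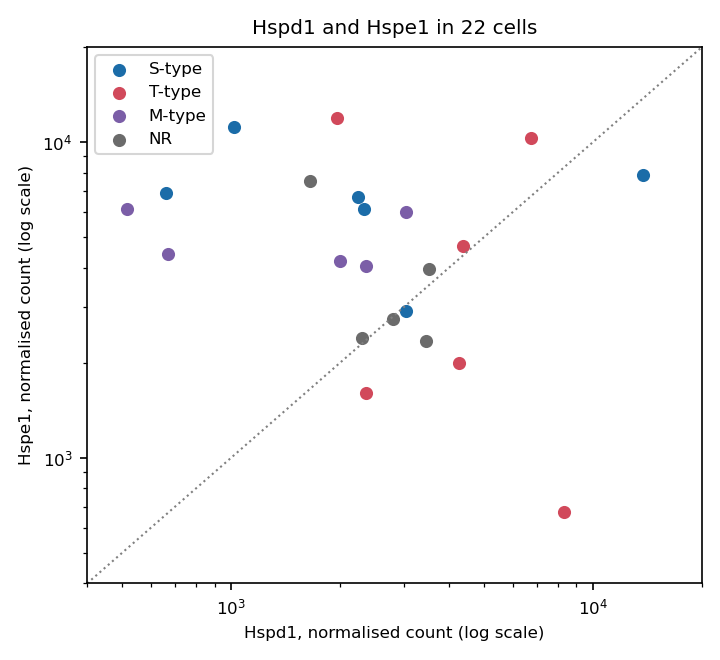
Normalised counts of Hspd1 (x axis) and Hspe1 (y axis) in 22 cells, both on log scales, coloured by response type, with the line of equal values. The points do not follow the line, with 15 cells above it and 7 below, and J162_16 lies at the lower right.

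The heat shock element core was looked for in the RefSeq promoter windows of all members, since it is the letter pattern best known for matrix chaperones. A window was found for 32 members, and 11 of them (34.4%) held TTCNNGAA, against 9.60% of 27025 genes. They were Timm8a2, Timm9, Timm10, Timm13, Timmdc1, Tomm20, Tomm22, Hspd1, Hspe1, Clpp and Phb. Hspd1 and Hspe1 hold the same cores in their shared region, so that region counts for both genes. The NRF1 site, searched as GCGCANGCG on both strands, was in 7 members (21.9%) against 7.03% of genes, and TGCAAT in 3 (9.38%) against 9.67%. These shares of genes cover all genes with a window, expressed or not, while 17479 genes had a read in these cells. Members were not compared with expressed genes alone, so whether such promoters hold these letters as often was not tested. Members without a window were Timm21, Tomm7, Tomm40l, Hspa9 and Afg3l2. Sequences of 4 members outside the chaperones are shown with the core in capitals, at chr15:79670811-79670840 (plus strand), chr2:84827024-84827053 (plus), chr10:80901016-80901045 (minus) and chr11:95666798-95666827 (plus) of GRCm38.p6.
Tomm22: gcccggctcgcTTCCGGAAgacgctctgtc
Timm10: gctagacttccTTCCGGAAgtgacccacgt
Timm13: gtttccttcctTTCTAGAAgccaaaggaca
Phb: cagaaacgggtTTCCTGAAagagcccgttg
Of these 4, Tomm22 was the only one past 2-fold in T-type against NR. Timm10 was past 2-fold and lower in S-type and M-type against NR. Timm13, a small Tim, and Phb stayed within 2-fold in all 4 contrasts. Of the members with a core that are not shown, Clpp was past 2-fold in T-type against NR (1.34). Timmdc1 was past it in T-type against S-type (2.43) and lower in S-type and M-type against NR (-1.50 and -1.48). A match is a string of letters in the reference and says nothing of which factor, if any, was bound.

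Of the proteases and prohibitins, 8 members had a ratio. In T-type against NR, Yme1l1 and Clpp were at least 2-fold higher and Clpx and Afg3l2 at least 2-fold lower, and no member of the group passed 2-fold in S-type against NR. Yme1l1 (chromosome 2, 23156369 to 23199260), the inner membrane AAA protease that faces the intermembrane space and degrades TIM17A, had 51.8, 952 and 61823 normalised counts in T-type and 80.4, 512 and 1662 in S-type. In M-type it had 1785, 1036, 539, 1099 and 118, and in NR 447, 253, 472, 998 and 9.27. The highest T-type value was J162_16, with 17047 of the 36321 reads of the gene, and the other T-type cells lay between 51.8 and 1443, below the highest S-type and M-type cells and, in the lowest cell, below the lowest of both.

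The Yme1l1 ratios of 3.94 for T-type over S-type and 4.65 for T-type over NR were thus the largest of any member, and they were 0.11 and 0.85 without J162_16, which held the highest value of all cells by CPM too. On the mean of CPM they were 2.31 and 2.79, lower than on normalised counts and of the same direction. The same cell held the highest Timm17a of all cells. Leaving out both T-type libraries gave 0.31 and 1.04, and 3 of 6 T-type cells exceeded every NR cell. In M-type Yme1l1 was 1.07 higher than in NR, between 0.67 and 1.64 with a cell left out.

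Afg3l2, the catalytic subunit of the matrix-facing m-AAA protease, had 3.63, 57.7 and 338 in T-type and 149.8, 286 and 802 in S-type. In M-type it had 173.9, 31.5, 150.96, 171 and 196 and in NR 369.7, 289, 139.5, 865 and 483. Counts were lower in T-type and M-type than in S-type and NR, as for Timm44, with 4 of 6 T-type cells below every NR cell and overlap in each contrast. Ratios were -1.56 for T-type over S-type, -1.69 for T-type over NR and -1.57 for M-type over NR, and each kept a size above 1 with any cell left out (-2.11 to -1.22, -2.25 to -1.27 and -1.80 to -1.14). Without J162_16 and J163_18 the T-type values were -1.80 and -1.93.

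The parts of the CLPXP protease went opposite ways in T-type. Clpp, the peptidase, had 10.9, 266 and 929 in T-type, while its NR values were 261, 119.7, 145, 89.7 and 80.7, a ratio of 1.34. It was 0.78 without J165_23. The 2 libraries that stood apart are the 2 T-type cells below every NR cell for Clpp, so leaving them out raises the ratio, to 1.97. With size factors recomputed over the 20 remaining cells the 4 T-type cells lay above all NR cells, as 2.81% of genes did in either direction, whereas with the original factors J161_9 (252) lay below J182_2 (261). Clpx, the unfoldase, had 0, 21.0 and 1458 in T-type, where 1 cell (J166_25) held nearly all, and 1099, 1526, 737, 703 and 64.0 in NR. Its ratio to NR was -1.63 and its ratio to S-type -1.63, where J151_5 gave the S-type maximum of 3147, and these were -4.90 and -4.88 without J166_25. Without J151_5 the ratio to S-type was -0.43, and without both libraries that stood apart the ratios to NR and to S-type were -1.001 and -1.002. Over 22 cells rho between Clpp and Clpx was 0.20, and -0.02 without both libraries.

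Lonp1, the main soluble matrix protease, Phb and Phb2, the ring-forming prohibitins, and Oma1, the stress-activated metalloprotease, stayed within 2-fold in all 4 contrasts. Lonp1 ran from 0 in J162_16 to 2887 in J166_25 within T-type and from 1.85 to 1608 in NR. Phb and Phb2, whose proteins form 1 complex, had a rho of 0.44 over 22 cells. Yme1l1 and Oma1, which both cleave OPA1, had a rho of -0.46.

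Among prefix members outside these complexes, Timmdc1, an assembly factor of respiratory complex I, had 0, 298 and 1224 in T-type and 0.742, 32.7 and 186.4 in S-type, with a ratio of 2.43. It was 1.49 without J164_19, the highest cell, and 2.76 without both libraries that stood apart. Its log2 ratio to NR was -1.503 in S-type and -1.477 in M-type, and without J187_6 these were -0.11 and -0.07. Tomm34, a cytosolic cochaperone, was 1.68 lower in M-type than in NR, and -0.40 without J186_5.

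Single cells set much of these levels. In T-type 1 cell held more than 50% of the summed normalised counts for 18 of 35 members, with a median share of 50.6% for the top cell, against 5 members and 36.0% in S-type, 8 and 39.0% in M-type and 10 and 40.3% in NR. Over all genes whose mean level reached 10, 1 cell held the majority for 69.9% of genes in T-type, 41.3% in S-type, 46.9% in M-type and 54.6% in NR. The top T-type cell was J162_16, J164_19 or J165_23 for 8 members each and J166_25 for 7, and no cell was the highest for most members. The NR cell J187_6 was the highest of its type for 11 members. Over 595 pairs of members the median rho across the 22 cells was 0.02, with 0.05 over pairs of all 11551 genes whose mean level reached 10.

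The other genes of import and proteostasis, a list of 32 of which 31 were in the table, were also compared by counts. This list also holds the stress response transcription factors Atf4, Atf5 and Ddit3, which are not import genes. Among those counted as higher in T-type were Atf5 (3.23 over S-type, 2.94 over NR) and Atf4 (1.78 over NR), named after their values were seen. In T-type against S-type 11 of 31 were at least 2-fold higher and 1 lower, in T-type against NR 11 and 3, in S-type against NR 5 and 6, and in M-type against NR 4 and 9, with medians of 0.83, 0.83, -0.23 and -0.15 and the shares of all genes given above. Of the T-type medians, that over S-type was 0.47 without J162_16 and that over NR 0.47 without J163_18, and without both cells they were 0.55 and 0.52. No gene of this list kept the cells of a contrast apart. The 1 lower in T-type than in S-type was Chchd4, the import receptor of the intermembrane space (-1.29, and -1.01 without both cells), named after its value was seen.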

How the data were processed

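RNA of 22 single astrocytes was analysed, in 4 groups taken from the sample labels. The authors amplified the RNA of each cell in 2 rounds, sequenced stranded TruSeq libraries, aligned the reads to GRCm38 with STAR and counted uniquely aligned exonic reads per gene with VERSE, and deposited these raw counts without normalization. Per the labels, STAR and HTSeq were used, and their versions are not given in the sources used here. No molecular identifiers are stated, so reads were not taken as independent molecules, and every interval holds the error of counting alone.

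Each cell was scaled by the DESeq method (median of ratios), using genes found in all cells. A gene was kept if at least 5 cells held a read of it. A type level was the mean normalised count over cells, and a level of 0 was set to a floor of 3 reads over the type. No fold was formed where both types had at most 3 reads. Intervals of 95% came from the exact binomial split of the reads. A fold of 2 counted as past the limit, and p-values and standard errors were not computed, since each type was 1 sample. The study's own DESeq2 test treats cells as replicates and was not repeated. Alternatives were TMM factors (edgeR 4.0.16, R 4.3.3), CPM, the median over cells, a pseudocount of 1, other filters (none, a mean level of 10 or 50), cells thinned to the smallest library and leaving out each cell. Leaving out J162_16 and J163_18 was chosen after seeing the data. Steps were tested on simulated data and ran in Python 3.11.15 with NumPy 2.4.6, pandas 2.3.3, SciPy 1.17.1 and matplotlib 3.10.9.

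The members, gene lists and role groups were chosen with earlier results of these data known. Described with values were Timm10b, Timm17a and Timm44, the 12 listed members, the 3 members per direction and contrast with the largest ratio past 2-fold at a mean level of at least 10, and the member with the most reads per length in each role. Members without a read or a ratio are named. Some others were named to complete a complex, chosen after their values were seen. Positions and exon lengths came from GENCODE vM21 and promoter windows from RefSeq (GRCm38.p6). The calcium recordings were not used here.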

Additional observations from a re-analysis of the deposited data

Results flagged for a closer look

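Within each type, the highest or lowest cell was compared with the nearest other cell by Dixon's criterion, for total counts, size factors, members with a read, the summed members and the 6 role groups. Of 40 groups 5 were marked, where chance marks about 1 in 20. The M-type cell J172_23 had 5709 CPM of members in sum, where the next highest M-type cell had 3584, and its TOM sum of 1483 stood above the next, 681. The S-type cell J151_5 had a TOM sum of 132.5 CPM, where the next lowest S-type cell had 692. The NR cell J185_4 had 814 CPM of matrix chaperones, where the next NR cell had 581. The T-type cell J164_19 had 116 CPM of Timmdc1 and Tomm34 together, where the next T-type cell had 41.1.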

How the results depend on the processing

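No paired analysis was possible because the labels give no replicate numbers that pair cells across types. Apart from left-out cells, 132 alternative values of the summaries stayed with the reported value, 18 moved and 2 changed sign, and for single members these counts were 935, 9 and 6. Those of the summaries, and the changes of sign of ratios past 2-fold, follow. The cause was not tested. The member median for T-type over S-type was -0.11 on mean CPM and -0.21 on the median over cells. Counts of members at least 2-fold higher moved to 8 for T-type over S-type without J162_16 and J163_18, to 5 for T-type over NR on pooled or mean CPM, to 1 for S-type over NR with TMM factors, mean CPM or thinned cells and 5 on the median over cells, and to 1 for M-type over NR on pooled or mean CPM or thinned cells and 6 on the median over cells. Counts at least 2-fold lower moved to 9 for T-type over S-type and 4 for S-type over NR on the median over cells. Leaving out J162_16 and J163_18 was chosen after seeing the data. Without them, 1 member (Clpp) did not overlap between T-type and NR, as 2.81% of genes did not. In NR the median number of members read was 34 from 5 reads and 35 in thinned cells, and the summed CPM with TMM was 3119.5 in S-type and 2780.1 in NR.

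On the median over cells, Tomm5 was -0.55 for T-type over S-type, Timm10b 0.38 and Timm21 3.46 for S-type over NR. Without J162_16 and J163_18, Tomm5 was -0.40 for T-type over S-type and -0.21 over NR, and Timm17a -0.23 over NR. Leaving out each cell in turn, the counts of higher members ran from 6 to 11 for T-type over S-type (5 with all cells), 5 to 10 for T-type over NR, 0 to 6 for S-type over NR and 0 to 4 for M-type over NR. Those of lower members ran from 4 to 8, 5 to 9, 3 to 9 and 3 to 8 in the same order, and members without overlap from 0 to 1, 0 to 1, 0 to 1 and 0 to 2. The member median ran from -0.051 (without J172_23) to 0.24 for M-type over NR, from 0.12 to 0.60 for T-type over S-type, from 0.17 to 0.54 for T-type over NR and from -0.17 to 0.16 for S-type over NR. With a cell left out, 37 of 100 single ratios crossed 0, most of them within 2-fold, and the 7 past 2-fold ran from -0.62 to 1.81 (Tomm5, T-type over S-type), -0.42 to 2.77 (Tomm5, T-type over NR), -0.17 to 1.65 (Timm17a, T-type over NR), -4.42 to 0.20 (Timm21, T-type over NR), -2.13 to 1.65 (Timm21, S-type over NR), -1.36 to 0.14 (Timm10b, S-type over NR) and -0.019 to 1.35 (Tomm70a, M-type over NR). J163_18, the smallest library, limits how low a member can be read.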
